A study of Homo sapiens with 3 samples.

Results

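Processed pseudogenes of ribosomal protein genes are copies of ribosomal protein mRNAs that were reverse transcribed and inserted elsewhere in the genome. The set described here comprised every gene of the deposited table whose type was processed_pseudogene or transcribed_processed_pseudogene, whose name began with RPL or RPS, and whose counts summed to at least 100 over the 3 libraries. Of 1136 such pseudogenes in a table of 58302 genes, 475 had at least 1 count and 137 reached the sum of 100 (126 processed_pseudogene and 11 transcribed_processed_pseudogene). Members were thus chosen by their summed counts, so the level of the set is a description. All libraries were made from HCT116 cells, a colorectal cancer line long kept in culture. The first 2 libraries (si1 and si2, called siRNA 1 and siRNA 2 here) were labelled with different small interfering RNA (siRNA) sequences in a series described as colorectal cancer cells low in DUOX2, and 1 library (NC, the control here) with another sequence. No dose, time or separate culture was given, so every p-value rests on how far siRNA 1 and siRNA 2 differ, which may be technical.

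A processed copy lacks introns and usually lacks the promoter of its parent gene, the gene whose mRNA was copied. Ribosomal protein genes, whose products build the large (RPL) and small (RPS) subunits of the ribosome, have short and very abundant mRNAs and are among the commonest sources of such copies in the human genome. A sequencing read that lies in a stretch shared by gene and copy fits both places, so counts of young copies depend on how an aligner and a counting program treat such reads. How it was done for this table is not stated in the labels, and its part in each result below was not tested.

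Library totals were 19130768 counts with siRNA 1, 18832672 with siRNA 2 and 17589502 in the control. DUOX2, the labelled target, had 2 counts with siRNA 1, 0 with siRNA 2 and 2 in the control, so a difference in it was not detectable at this depth. Of 12 colorectal epithelial markers, 11 were detected, with summed counts of 63397 with siRNA 1, 92990 with siRNA 2 and 94965 in the control. The extraction protocol speaks of retinas, but 3 of 12 retinal markers were detected (RLBP1, NRL and PDE6A), with sums of 95, 119 and 160 in the same order. Markers of fibroblasts, immune cells and endothelium, each list taken alone, summed to at most 69 counts in any library.

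The names were checked against sequence, since the parent is given by the symbol before the final P and number. The annotated transcript of each of the 137 copies was aligned to the coding sequences of 80 genes, and for 135 copies the best match was the named parent. The exceptions, RPL7P21 and RPL7P22, matched RPL7L1, a nucleolar relative of RPL7, and aligned to RPL7 itself over only 25.4% of the coding sequence. RPL7P22 was 96.4% identical to the RPL7L1 coding sequence over 95.4% of its length, which is closer than RPL7L1P8, a copy named after that gene, at 93.3%. These lines show the same 120 coding bases (318 to 437, counted from the A of the start codon) in RPL7L1 (GRCh38, chr6:42884619-42884738, plus strand), RPL7P22 (chr5:72725704-72725823, plus) and RPL7L1P8 (chr3:182610963-182611082, plus). Capitals mark the bases at which a copy differs from the gene, and in the gene every base at which a shown copy differs.
RPL7L1: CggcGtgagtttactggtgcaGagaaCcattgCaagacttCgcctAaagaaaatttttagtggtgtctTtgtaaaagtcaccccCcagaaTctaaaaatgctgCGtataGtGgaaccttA
RPL7P22: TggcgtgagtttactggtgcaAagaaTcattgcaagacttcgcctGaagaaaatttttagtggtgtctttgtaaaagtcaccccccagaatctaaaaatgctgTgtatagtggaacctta
RPL7L1P8: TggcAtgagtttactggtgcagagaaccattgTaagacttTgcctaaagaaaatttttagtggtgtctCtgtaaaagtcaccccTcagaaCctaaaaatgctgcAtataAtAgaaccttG
In this stretch RPL7P22 had 5 differences and RPL7L1P8 had 11. Values of both RPL7L1-like copies are set against RPL7 below because the rule names that parent.

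The copies were close to their parents. Identity to the parent mRNA, counted over aligned columns with gaps, ranged from 67.2% (RPL7P21) through a median of 97.03% to 100%, and the copies spanned a median of 99.7% of the parent coding sequence. Copies identical to the parent over the whole alignment were RPL21P16, RPL39P3, RPS28P7, RPL41P1 and RPL41P5. A start codon at the parent position was kept in 109 of 137 copies, 82 had no frameshift, and in 47 a reading frame covered at least 95% of the parent's codons. Whether a copy is translated cannot be read from these counts. The least similar copies other than the RPL7L1-like pair were RPL13P5 at 76.8% and RPL26P30 at 82.9%, both annotated as transcribed.

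Likeness sets how far reads can tell gene and copy apart. Windows of 50 bases were used, since no read length was stated. The median copy had 27.4% of its windows present without mismatch in a transcript of its parent, and 58.5% of its windows in no other gene's transcript. In 37 copies at least 50% of windows were present in the parent. RPL21P16, RPL39P3, RPS28P7, RPL41P1 and RPL41P5 had no window of their own.

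RPL21, a protein of the large subunit, had the most counts on its copies, and the sequences show how little separates them. The lines give coding bases 278 to 397 of RPL21 (chr13:27256219-27256439, plus strand, spliced, so that an intron lies between the ends), RPL21P75 (chr7:20003042-20003161, plus), RPL21P16 (chr10:120354787-120354906, minus) and RPL21P93 (chr10:28899088-28899207, minus), all in GRCh38.
RPL21: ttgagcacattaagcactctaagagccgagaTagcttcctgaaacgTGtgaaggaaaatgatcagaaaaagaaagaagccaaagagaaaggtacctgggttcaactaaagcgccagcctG
RPL21P75: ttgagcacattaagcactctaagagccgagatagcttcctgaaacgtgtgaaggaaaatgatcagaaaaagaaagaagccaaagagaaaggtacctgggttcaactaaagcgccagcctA
RPL21P16: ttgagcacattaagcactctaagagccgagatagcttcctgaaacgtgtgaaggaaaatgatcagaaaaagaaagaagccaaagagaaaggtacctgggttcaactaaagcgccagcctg
RPL21P93: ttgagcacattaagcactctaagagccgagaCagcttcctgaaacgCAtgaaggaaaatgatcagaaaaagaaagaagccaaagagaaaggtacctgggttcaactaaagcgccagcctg
RPL21P75 differed from RPL21 at 1 of 483 coding bases, G397A, and RPL21P16 at none. RPL21P93 differed at 9 aligned bases, of which T309C, T324C and G325A lie in this stretch.

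RPL21P75 (ENSG00000213860, chromosome 7, 20002765 to 20003247, opposite in strand to AC005062.1, whose exon it overlaps) was the member with the largest total. It had 13770 counts with siRNA 1, 13112 with siRNA 2 and 8896 in the control, while RPL21 had 354, 358 and 335 in the same order. Both siRNA libraries were above the control for the copy, by 0.65 and 0.52 on the log2 scale, without passing the test across all genes (edgeR adjusted p = 0.148). RPL21P16 had 4422 counts with siRNA 1, 4611 with siRNA 2 and 3671 in the control. RPL21P93 had 1121, 679 and 316. On the authors' length-scaled values, RPL21P75 had 1490 FPKM with siRNA 1, 1441 with siRNA 2 and 1047 in the control, against 5.09, 5.23 and 5.24 FPKM for RPL21. The length implied by those values was 483 bases for the copy and 3637 for the gene, beside 616 bases in the RPL21 mRNA aligned here, and a longer length gives a lower FPKM for the same count.

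Counts were concentrated on a few copies. Totals over the 3 libraries ran from 102 to 35778 with a median of 1244, and 15 copies held 50% of all counts on the set. The 12 largest held 45.1%. Behind RPL21P75 came RPL13AP5, a copy of the large-subunit gene RPL13A, with 6430 counts with siRNA 1, 10373 with siRNA 2 and 13612 in the control. Both siRNA libraries were below the control, by 1.06 and 0.43 on the log2 scale (edgeR adjusted p = 0.188). RPS2P5, a copy of the small-subunit gene RPS2, had 7746, 8964 and 9673 counts. RPL23AP42 had 8068, 8747 and 8467, and RPSAP58 had 6005, 7185 and 7007. Both had a siRNA count on either side of the control count. Scaled to library size, log2 fold changes with siRNA 1 and siRNA 2 were -0.05 and 0.01 for RPL23AP42 and -0.20 and -0.002 for RPSAP58. RPS3AP6 had 6646, 6335 and 5876 counts. RPL7P9 (6789, 6600 and 4344 counts with siRNA 1, with siRNA 2 and in the control), RPL14P1 (5515, 6232 and 4505), RPSAP15 (5295, 6117 and 3479) and RPL12P4 (4644, 5099 and 3577) were higher with both siRNAs than in the control. RPL7AP6 was lower with both (5040, 5104 and 6524 counts), and RPS7P1 had 4568, 5337 and 4662. None of the 12 passed the test, and RPS2P5, RPS3AP6, RPSAP58 and RPS7P1 changed the sign of their fold change when the trend on GC content was removed. The fitted log2 fold change then was 0.27 for RPL21P75 (0.59 without the removal), 0.29 for RPL7P9 (0.61), -0.14 for RPL7AP6 (-0.37) and -0.21 for RPL13AP5 (-0.71).

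**Figure D1:**
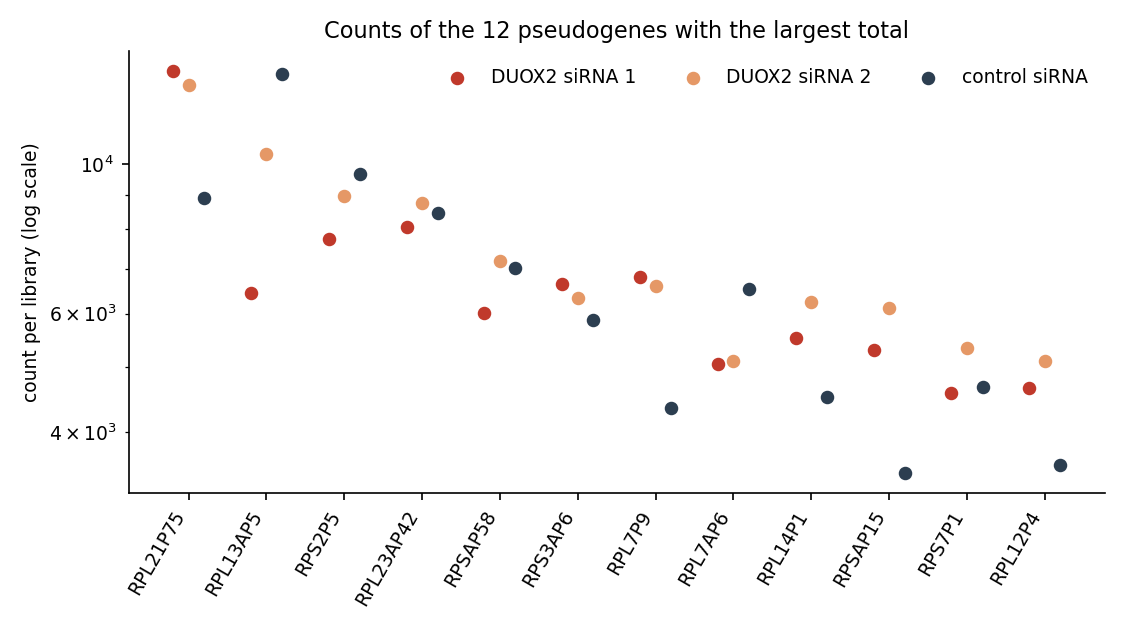
Count per library (log axis) of the 12 pseudogenes with the largest total; points from left to right are DUOX2 siRNA 1, DUOX2 siRNA 2 and control siRNA, 1 library each. RPL21P75 lies above the control with both siRNAs (13770 and 13112 against 8896 counts) and RPL13AP5 below it (6430 and 10373 against 13612).

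More alike copies had more counts. The 26 copies of at least 99% identity held 45.3% of the counts of the set, with a median total of 6450, and the 25 copies from 98 to 99% held 34.4%. The 36 copies under 95% held 4.56%, with a median total of 339.5. Across the 137 copies Spearman's rho between identity and total was 0.65, a description of points that share libraries, parents and reads. In 17 copies the count exceeded that of the parent in every library, and the lowest identity among these was 98.7%. RPS28P7, identical to the coding sequence of the small-subunit gene RPS28, had 1069 counts with siRNA 1, 1199 with siRNA 2 and 1971 in the control, against 27, 34 and 32 for RPS28. RPL9P7 had 3532, 3952 and 2773 counts, against 210, 232 and 175 for RPL9. Per length, RPS28P7 had 266 FPKM with siRNA 1, 303 with siRNA 2 and 534 in the control, and RPL9P7 had 318, 362 and 272. RPL18AP3, which lies within an intron of TXNRD1 on the same strand, had 2124, 2676 and 5749 counts.

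**Figure D2:**
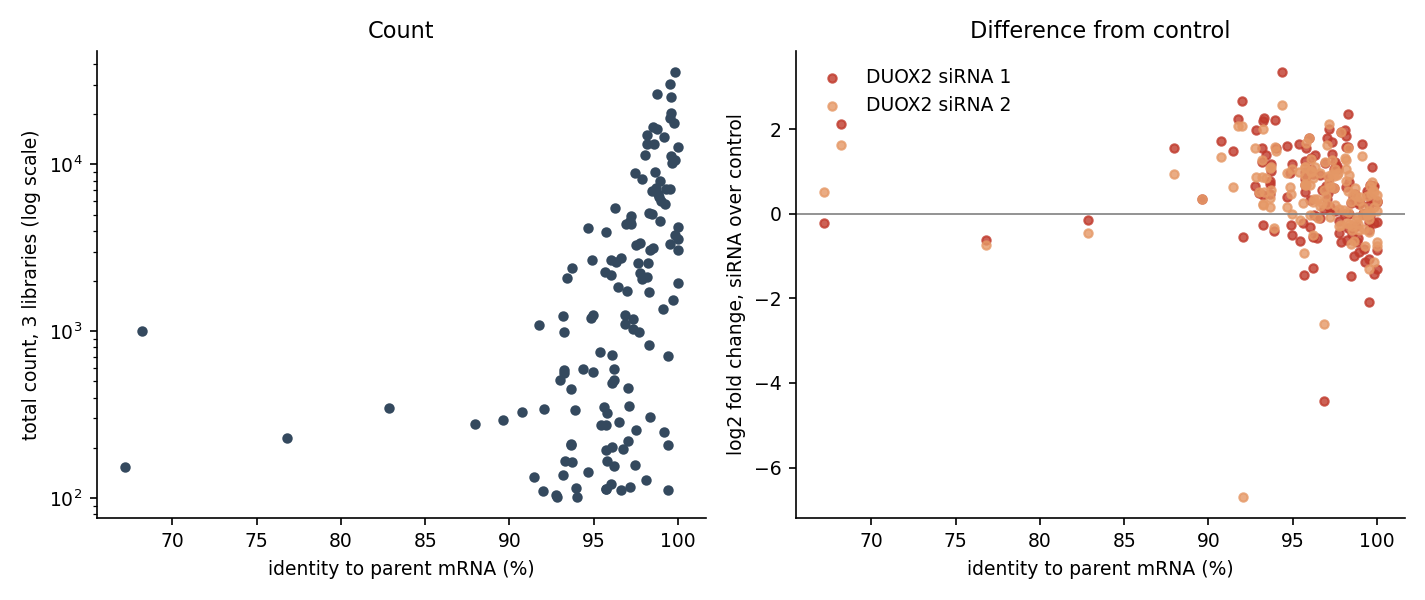
Left, total count over the 3 libraries (log axis) against identity to the parent mRNA in percent; right, log2 fold change over control with siRNA 1 and siRNA 2 against the same identity. Each point is 1 of 137 pseudogenes; the 26 copies of at least 99% identity have a median total of 6450 and median fold changes near 0, and the lowest point at the right is RPL19P16, which had 0 counts with siRNA 2.

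The division between gene and copies was then taken per family, a parent gene with its members. The 137 copies fell into 48 families, and 19 of these had a single member. The largest families were RPSA (10 members), RPL12 (9), RPL21 (8), RPL7 (8), RPL5 (7) and RPL7A (6). Summed over families, copies took 46.9% of counts with siRNA 1, 48.1% with siRNA 2 and 42.6% in the control. In 18 families copies held over 50% of counts in every library. The share was 98.3%, 98.2% and 97.6% for RPL21, with siRNA 1, with siRNA 2 and in the control. It was 95.6%, 95.9% and 95.8% for RPL9. After RPL21, the families with the most counts on copies were RPSA, RPS2 (80.6%, 75.6% and 67.7%), RPL13A (72.9%, 83.3% and 70.0%), RPL23A (80.2%, 82.3% and 83.5%) and RPL7 (88.1%, 85.1% and 82.6%). In the RPL4 family, whose gene had 13006 counts with siRNA 1, 12849 with siRNA 2 and 14374 in the control, copies took 21.4%, 21.6% and 14.8%.

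The share on copies followed the closest copy of the family. In the 18 families whose closest copy was at least 99% identical, the median share was 78.3% with siRNA 1, 79.0% with siRNA 2 and 76.6% in the control. In the 16 families whose closest copy was under 97% identical it was 6.72%, 6.63% and 4.55%. Across the 48 families Spearman's rho between the identity of the closest copy and the share on copies was 0.82 with siRNA 1, 0.84 with siRNA 2 and 0.87 in the control (Pearson 0.71, 0.72 and 0.72). The share of 50-base coding windows that cross an exon junction of the parent, which an intronless copy holds in one piece, had rho values of 0.04, 0.06 and 0.07 with the same shares. These are descriptions over families that share the 3 libraries.

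Between libraries the share on copies was higher with both siRNAs than in the control in 32 families and lower with both in 8. Exact binomial intervals at 95%, which cover counting error only, lay apart from the control with both siRNAs in 25 families with a higher and 4 with a lower share. These shares count members only, and members were chosen by sums that include siRNA counts. A family whose members passed only through the siRNA libraries, such as RPL23 (RPL23P8: 62, 41 and 12 counts), was thus bound to be higher. Over all copies in the table, the summed share was 47.1% with siRNA 1, 48.2% with siRNA 2 and 42.7% in the control. In the RPL26 family copies took 46.4% (interval 45.6 to 47.3) with siRNA 1 and 39.9% (39.0 to 40.7) with siRNA 2, against 22.1% (21.3 to 23.0) in the control. In the RPSA family they took 91.5% and 91.3% with siRNA 1 and siRNA 2, against 80.2% in the control. In the RPL6 family, with RPL6P27 as its member, they took 12.5% and 17.1%, against 27.6% in the control. Each siRNA and the control had 1 library, so these differences have no replicate check.

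**Figure D3:**
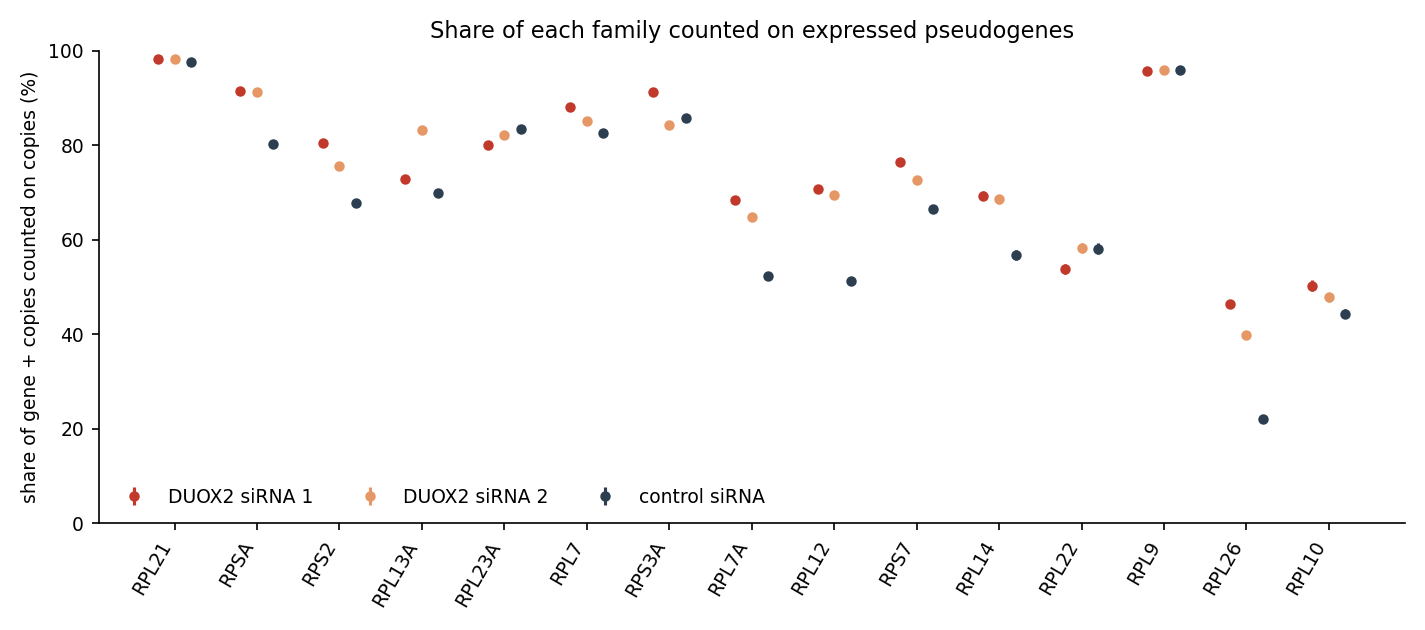
Share of the counts of a parent gene and its expressed pseudogenes that lay on the pseudogenes (percent) for the 15 families with the most counts on pseudogenes; points from left to right are siRNA 1, siRNA 2 and control, and bars are exact 95% binomial intervals, mostly smaller than the points. RPL21 and RPL9 stay above 95% in every library, while RPL26 has 46.4% and 39.9% with the siRNAs against 22.1% in the control.

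Both siRNA libraries were then set against the control to see how copies differed in cells described as low in DUOX2. All 137 copies passed the expression filter, and 0 passed the test (edgeR quasi-likelihood test over 17263 genes, Benjamini-Hochberg adjusted p, threshold 0.05), where 0.0579% of all tested genes passed. At an unadjusted p under 0.05 there were 62 copies, 52 higher and 10 lower with the siRNAs, or 45.3% of the set against 26.0% of all tested genes. DESeq2 called 21 of the 137 copies, 16 higher and 5 lower, against 567 of 17263 tested genes (3.28%). It gave no adjusted p for some copies, such as RPL22P3 and RPL23P8, which count here as not called. By the rule of size, at least 2-fold from the control in the same direction with both siRNAs, 26 copies were higher (19.0% of the set, against 4.0% of tested genes) and 3 lower (2.19%, against 5.05%). The median log2 fold change of the copies was 0.46 with siRNA 1 and 0.47 with siRNA 2, beside 0.02 and -0.01 over all tested genes. The choice of members adds siRNA and control counts, so a copy with few control counts reached the sum of 100 only when it was higher with the siRNAs. There were 17 copies with a control count under 33, of which 7 were 2-fold higher. A control count of exactly 33 is also too low for equal counts to reach 100. RPS15AP38 and RPL12P8, each with 33 in the control and 2-fold higher, are not among the 17. Among the 94 copies with at least 100 counts in the control alone, an alternative chosen after the data were seen, 14 were 2-fold higher (14.9%) and 3 lower (3.19%), beside 1.59% and 4.24% of all tested genes with that control count, and the medians were 0.18 and 0.30.

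RPSAP54 (ENSG00000213621, chromosome 13, 20961310 to 20962195, between genes), a copy of RPSA, had the smallest adjusted p of the set. RPSA encodes the small-subunit protein SA, also known as the laminin receptor. RPSAP54 had 3556 counts with siRNA 1, 3708 with siRNA 2 and 938 in the control, so that both siRNA libraries were far above the control. The fitted log2 fold change was 1.94 ± 0.20 (SE, edgeR adjusted p = 0.0689, DESeq2 adjusted p = 5.79e-10). RPL5P23, which lies within an intron of POLB on the opposite strand, had 505, 470 and 107 counts (log2 fold change 2.18 ± 0.27 SE, edgeR adjusted p = 0.0903). Both passed at a threshold of 0.10 and no other member did.

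RPS15AP38, a copy of the small-subunit gene RPS15A on chromosome 22, had 350 counts with siRNA 1, 211 with siRNA 2 and 33 in the control (log2 fold change 3.08 ± 0.48 SE, edgeR adjusted p = 0.105). With 33 counts in every library it would not have reached the total of 100, so a higher siRNA count was part of its selection. RPS15A itself had 2826, 4042 and 3443 counts, with a siRNA count on either side of the control count. The copy was 94.4% identical to its parent, and 82.0% of its 50-base windows were in no other gene's transcript. The lines give coding bases 100 to 219 of RPS15A (chr16:18784818-18789014, minus strand, spliced) and RPS15AP38 (chr22:36421444-36421563, minus), which differ at 11 bases.
RPS15A: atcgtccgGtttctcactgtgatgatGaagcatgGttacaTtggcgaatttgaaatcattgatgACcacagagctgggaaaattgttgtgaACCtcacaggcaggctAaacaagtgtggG
RPS15AP38: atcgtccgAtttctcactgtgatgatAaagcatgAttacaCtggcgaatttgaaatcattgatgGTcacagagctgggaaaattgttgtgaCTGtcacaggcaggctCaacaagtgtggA
The longest run without a difference between RPS15AP38 and its parent was 94 bases. RPL26P19, a copy of RPL26 on chromosome 5 that is not among the 10 furthest above the control and was chosen after its values were seen, had 6074 counts with siRNA 1, 5116 with siRNA 2 and 2056 in the control (log2 fold change 1.44 ± 0.23 SE, edgeR adjusted p = 0.105), against 7141, 7863 and 7698 for RPL26. Its 8 differences from the coding sequence include 6 in bases 298 to 417, shown for RPL26 (chr17:8377585-8379807, minus, spliced) and RPL26P19 (chr5:56504656-56504775, minus).
RPL26: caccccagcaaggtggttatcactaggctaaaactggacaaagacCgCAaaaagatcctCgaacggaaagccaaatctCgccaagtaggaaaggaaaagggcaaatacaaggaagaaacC
RPL26P19: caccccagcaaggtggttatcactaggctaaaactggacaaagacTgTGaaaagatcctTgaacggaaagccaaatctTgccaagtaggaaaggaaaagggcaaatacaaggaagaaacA
The longest run without a difference between RPL26P19 and its parent was 209 bases, and 50.4% of its 50-base windows were present in a transcript of RPL26.

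Beside RPSAP54, RPL5P23 and RPS15AP38, the 10 copies furthest above the control were RPL22P3 (61 counts with siRNA 1, 41 with siRNA 2 and 8 in the control), RPS3AP5 (275, 250 and 59), RPL7P47 (49, 56 and 11), RPS27AP11 (53, 55 and 14), RPL7P22 (512, 378 and 118), RPL23AP65 (206, 190 and 59) and RPL23P8 (62, 41 and 12). Their direction is part of the rule that named them, and those with 8 to 14 counts in the control reached the total of 100 only through the siRNA libraries. Their adjusted p-values (edgeR) ran from 0.105 to 0.126.

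Lower values were rarer. RPSAP47, another copy of RPSA, had 40 counts with siRNA 1, 153 with siRNA 2 and 915 in the control (log2 fold change -3.27 ± 0.64 SE, edgeR adjusted p = 0.112), and its frame was open over all of the parent's codons. RPL15P3 had 467, 833 and 2009 counts and RPL18AP3 2124, 2676 and 5749. These 3 copies were the ones at least 2-fold lower with both siRNAs. With the trend on GC content removed, RPL18AP3 had log2 fold changes of -0.62 with siRNA 1 and -0.53 with siRNA 2 and was no longer among them, while RPSAP47 and RPL15P3 were. RPL35P1 (427, 641 and 1189 counts), RPL6P27 (1546, 2092 and 3476), RPS28P7 (1069, 1199 and 1971), RPL13P12 (908, 1599 and 2554), RPL41P1 (605, 972 and 1510), RPS2P46 (2059, 2766 and 4190) and RPL13P5 (65, 62 and 103) completed the 10 furthest below. Several of these values depended on GC content. With its trend removed, the fitted log2 fold change was -0.0018 for RPS28P7 (-0.81 without the removal), -0.08 for RPS2P46 (-0.81), -0.10 for RPL13P5 (-0.71), -0.30 for RPL13P12 (-1.04) and -0.72 for RPL35P1 (-1.17). RPL6P27 (-1.09, against -0.95) and RPL41P1 (-0.87, against -0.95) moved less. RPL19P16, named after its values were seen, had 137 counts with siRNA 1, 0 with siRNA 2 and 203 in the control, and was the only member with a 0 in any library. RPL41P5, as identical to RPL41 as RPL41P1 is, went the other way from it, with 654, 746 and 534 counts.

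**Figure D4:**
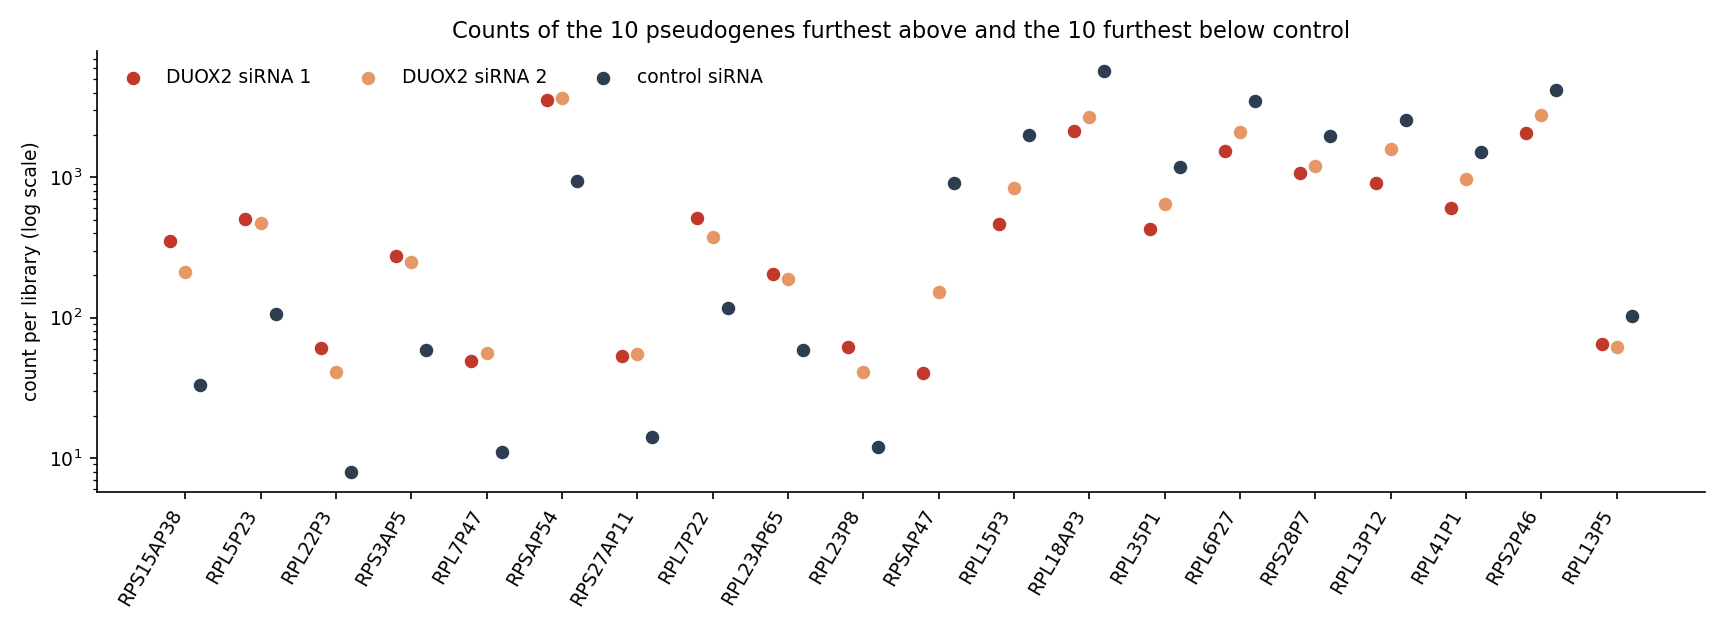
Count per library (log axis) of the 10 pseudogenes furthest above (left) and the 10 furthest below (right) the control by the smaller of the 2 fold changes; points from left to right are siRNA 1, siRNA 2 and control. RPS15AP38 has 350 and 211 counts with the siRNAs against 33 in the control, and RPSAP47 has 40 and 153 against 915.

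Copies of the same gene could lie on opposite sides of the control. Among the 10 RPSA copies, log2 fold changes ran from -4.43 (RPSAP47) to 1.97 (RPSAP45) with siRNA 1 and from -2.60 (RPSAP47) to 1.94 (RPSAP54) with siRNA 2, beside -1.11 and -0.93 for RPSA. RPSAP9 had 1406 counts with siRNA 1, 1296 with siRNA 2 and 605 in the control, and RPSAP12 had 656, 896 and 1022. The lines show coding bases 584 to 703 of RPSA (chr3:39411734-39411971, plus strand, spliced), RPSAP58 (chr19:23827745-23827864, plus), RPSAP15 (chrX:87703528-87703647, minus) and RPSAP54 (chr13:20961894-20962013, plus), copies with fold changes near 0, moderately above it and far above it.
RPSA: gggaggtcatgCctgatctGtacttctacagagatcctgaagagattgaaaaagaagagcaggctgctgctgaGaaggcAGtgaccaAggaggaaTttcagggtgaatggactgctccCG
RPSAP58: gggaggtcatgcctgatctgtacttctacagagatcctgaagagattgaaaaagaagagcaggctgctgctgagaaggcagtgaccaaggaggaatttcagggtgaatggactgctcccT
RPSAP15: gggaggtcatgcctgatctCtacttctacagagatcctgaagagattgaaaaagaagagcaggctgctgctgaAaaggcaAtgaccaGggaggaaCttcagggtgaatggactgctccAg
RPSAP54: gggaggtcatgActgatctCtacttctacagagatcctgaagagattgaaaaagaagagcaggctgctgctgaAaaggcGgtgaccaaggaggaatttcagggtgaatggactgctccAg
Here RPSAP58 carried G703T alone. RPSAP15 and RPSAP54 shared G603C, G657A and C702A, and C595A and A663G were found in RPSAP54 among the copies shown. In the RPL12 family, RPL12P16 had 1361 counts with siRNA 1, 1970 with siRNA 2 and 2480 in the control. RPL12P4 had 4644, 5099 and 3577 in the same order, and RPL12P35 had 68, 76 and 22. In the RPL7 family, log2 fold changes of the 8 copies ran from -0.47 (RPL7P23) to 2.12 (RPL7P22) with siRNA 1 and from -0.30 (RPL7P23) to 2.12 (RPL7P47) with siRNA 2, beside -0.04 and 0.26 for RPL7. In the RPL7A family they ran from -0.35 (RPL7AP6) to 1.65 (RPL7AP50) with siRNA 1 and from -0.39 (RPL7AP6) to 1.28 (RPL7AP31) with siRNA 2, beside -0.97 and -0.77 for RPL7A. In the RPL5 family, the copies with at least 100 counts in the control had log2 fold changes of 0.99 and 0.98 (RPL5P1), 2.24 and 2.08 (RPL5P23), 0.51 and 0.71 (RPL5P34) and 1.16 and 1.11 (RPL5P4) with siRNA 1 and siRNA 2, beside 0.29 and 0.34 for RPL5. RPL5P17, RPL5P29 and RPL5P9 had 22 to 24 counts in the control and reached the total of 100 through the siRNA libraries, so their direction was fixed by the rule. The same holds for RPSAP45, RPL7P47 and RPL12P35, which also reached it only through the siRNA libraries. RPSAP54, with at least 100 counts in the control, had a log2 fold change of 1.94 with siRNA 1.

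Set against their parents, 104 of 137 copies had the higher log2 fold change with both siRNAs, 19 the lower and 14 one of each. The median difference, copy minus parent, was 0.74. The parents had medians of -0.17 with siRNA 1 and -0.02 with siRNA 2. Both comparisons share the control library, and members of a family share a parent. Copies, unlike parents, were chosen by a sum that includes siRNA counts, so those with few control counts entered only when higher with the siRNAs. With at least 100 counts in the control, a choice made after the data were seen, 68 of 94 copies had the higher log2 fold change with both siRNAs. Of the 79 ribosomal protein genes, 0 passed the edgeR test over all genes (20 at an unadjusted p under 0.05, 2 higher and 18 lower), 1 was 2-fold higher with both siRNAs and 3 were 2-fold lower. Among these were RPL39 (651, 544 and 217 counts with siRNA 1, with siRNA 2 and in the control), which was higher, and RPL13 (1281, 1528 and 3116) and RPS27 (62, 85 and 238), which were lower. RPL39P3, identical to RPL39, had 1048, 1311 and 1217 counts. When gene and copies were summed to 1 row per family, 0 of 48 families passed, with a smallest edgeR adjusted p of 0.102, and the median log2 fold change over families was -0.04, beside -0.08 for the parents alone.

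**Figure D5:**
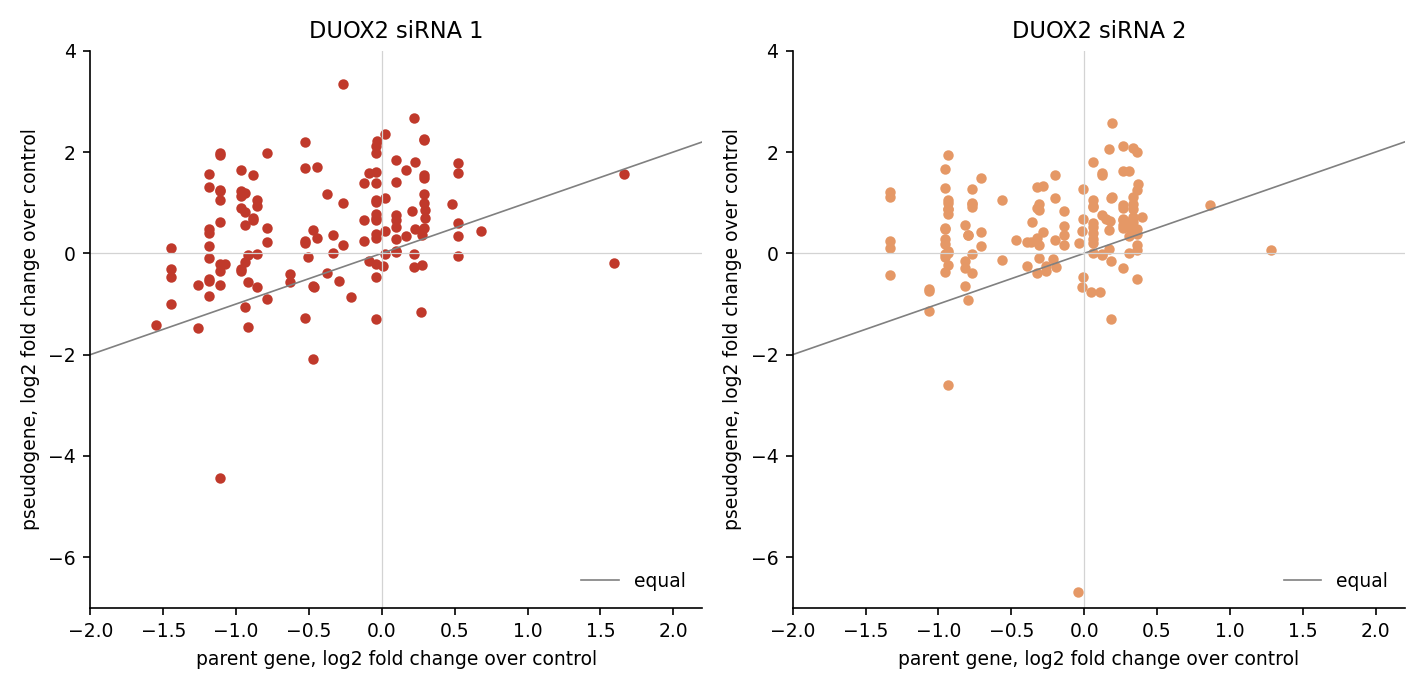
Log2 fold change over control of each of the 137 pseudogenes (vertical axis) against that of its parent gene (horizontal axis), with siRNA 1 on the left and siRNA 2 on the right; the line marks equal values. Most points, 104 with both siRNAs, lie above the line; the lowest point with siRNA 2 is RPL19P16, whose value depends on the prior count because it had 0 counts there.

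Fold changes were larger in the less similar copies. Of the 36 copies under 95% identity 11 were 2-fold higher with both siRNAs, with medians of 1.09 with siRNA 1 and 0.74 with siRNA 2. The 11, and the 5 given below with at least 100 counts in the control, include RPL7P22. It was classed by its alignment to RPL7 but was 96.4% identical to the RPL7L1 coding sequence. Of the 26 copies of at least 99% identity 1 was 2-fold higher (RPS23P8) and 2 were lower (RPL15P3 and RPL18AP3), with medians of -0.01 and 0.04. Copies from 95 to 98% had medians of 0.67 and 0.70, and those from 98 to 99% had 0.22 and 0.27. Spearman's rho between identity and the mean fold change was -0.38 over the 137 copies. Identity, total count and the rule that chose members move together, so their parts cannot be told apart. With at least 100 counts in the control, 5 of 17 copies under 95% and 1 of 23 copies of at least 99% were 2-fold higher. GC content moved with the fold change as well. The 41 copies under 45% GC had medians of 0.86 and 0.65 with siRNA 1 and siRNA 2, and the 65 copies of at least 50% GC had -0.03 and 0.25. With the trend on GC content removed, the medians of the set were 0.42 and 0.46 (0.01 and 0.01 over all tested genes), and 29 copies were 2-fold higher and 2 lower.

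By position, 69 copies lay between genes, 33 within an intron of a gene on the opposite strand and 20 within an intron of a gene on the same strand, while 15 shared exon bases with another gene. The median log2 fold changes with siRNA 1 and siRNA 2 were 0.48 and 0.56 between genes, 0.53 and 0.51 within introns of the opposite strand, and 0.41 and 0.46 within introns of the same strand. They were -0.05 and 0.36 for the 9 copies that shared exon bases with a gene on the opposite strand (1 was 2-fold higher), and -0.07 and -0.11 for the 6 that shared them with a gene on the same strand (0 were). The 11 copies annotated as transcribed had medians of -0.15 and 0.15, and 0 of them were 2-fold higher. Those with a total of at least 1000 were RPL6P27, RPS27AP16 (2515 counts with siRNA 1, 2856 with siRNA 2 and 1832 in the control), RPL9P9 (1058, 1449 and 1258) and RPL12P38 (319, 466 and 458). Copies whose frame was open over at least 95% of codons had medians of -0.01 and 0.16 (47 copies), and the other 90 had 0.67 and 0.65.

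The set was compared with the other processed pseudogenes of the table that had a total of at least 100. Of these 784, 215 were 2-fold higher with both siRNAs (27.4%) and 9 lower (1.15%), with medians of 0.78 and 0.72, and 0 passed edgeR (404 at an unadjusted p under 0.05). Of the 407 with at least 100 counts in the control, 79 were 2-fold higher (19.4%) and 7 lower (1.72%), with medians of 0.57 and 0.50, beside 14 of 94 higher (14.9%) and medians of 0.18 and 0.30 for the ribosomal protein copies chosen in that way. The difference between these lists was not tested. The other processed pseudogenes took 3.73% of counts with siRNA 1 and 3.63% with siRNA 2, against 2.80% in the control. The ribosomal protein copies took 0.947% and 1.06%, against 0.995% in the control, so their share of the library was on either side of the control although most copies were above it.

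At the threshold of the rule, the members just inside were RPSAP45 (60 counts with siRNA 1, 28 with siRNA 2 and 14 in the control), RPS10P2 (44, 44 and 14) and RPL4P2 (29, 58 and 18). Just outside were RPS21P4 (39, 43 and 9), RPS27P29 (51, 23 and 15) and RPL21P120 (30, 34 and 22).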

How the data were processed

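RNA-seq of 2 DUOX2 siRNA libraries and 1 control siRNA library of HCT116 cells was analysed from 1 table of all genes. The authors deposited whole-number read counts and FPKM (counts scaled by gene length and library size) per gene and library. The submitters' processing notes list Bowtie 0.12.2, mm8 and GRCh38 and do not say how each was used. Coordinates of 135 members were identical to GENCODE 29 (GRCh38). No source used here names the counting program, its strand setting or how reads fitting several places were counted.

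Counts were fitted over 17263 genes that passed filterByExpr (minimum count 10) with edgeR 4.0.16 in R 4.3.3 (TMM scaling, quasi-likelihood test, siRNA libraries against control, 1 residual degree of freedom, Benjamini-Hochberg threshold 0.05). With 2 libraries against 1, an exact permutation test cannot go below p = 0.333. For each siRNA library the log2 fold change was its log2 CPM (prior count 2) minus that of the control. DESeq2 1.42.0, limma 3.58.1 on log2(FPKM + 0.1), other scalings, removal of the GC trend and other thresholds were alternatives. The edgeR steps were tested on simulated data. Copies were aligned locally to GENCODE 29 transcripts with Biopython 1.88 (match 2, mismatch -3, gap open -5, gap extend -2), and the printed sequences come from those transcripts. Intervals are exact binomial (95%) and cover counting error only, since reads carried no molecular identifiers that are known here.

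Named members are the 12 largest totals, the 10 highest and 10 lowest by the smaller absolute fold change among members with the same sign with both siRNAs and at least 50 counts in a library, the 5 largest FPKM relative to the parent, the 4 highest and 4 lowest identities, the 3 on each side of the threshold, and transcribed members with at least 1000 counts. Named families are the 6 with the most members and the 6 with the most counts on copies. Other members named in the text were chosen after their values were seen. Members, lists and tests were chosen with earlier results of these data known. Results on some withheld items are not reported here.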

Additional observations from a re-analysis of the deposited data

How the results depend on the processing

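No paired analysis was possible because there was 1 control library, so no 2 pairs could be formed. Leaving out a siRNA library leaves 1 library against 1 and no test. The edgeR count of 0 members was also 0 under every other scaling, filter and membership tried and with limma, but DESeq2 called 21 and a threshold of 0.10 called 2. The median log2 fold change of members, averaged over both siRNAs, was 0.43. It was 0.33 with scaling by total count, 0.42 with the GC trend removed, 0.51 with a total of at least 50, 0.27 with at least 1000, 0.48 without members sharing exon bases and 0.26 with at least 100 counts in the control, a choice made after the data were seen. It was 0.46 to 0.47 with 1 siRNA library left out. Members 2-fold higher numbered 13 of 77 with a total of at least 1000 and 14 of 94 with at least 100 in the control, beside 26 of 137. At 4-fold there were 4 higher and 1 lower. With siRNA 2 alone there were 30 higher and 4 lower, and with siRNA 1 alone 43 higher and 10 lower. Members above their parent numbered 58 of 77 with a total of at least 1000 and 68 of 94 with at least 100 in the control, beside 104 of 137. They numbered 108 to 114 of 137 with 1 siRNA library left out.

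The share of library counts on members, with siRNA 1, with siRNA 2 and in the control, was 0.908%, 1.02% and 0.968% with a total of at least 1000, and 0.757%, 0.849% and 0.802% without members sharing exon bases. As a share of summed FPKM it was 4.92%, 6.26% and 6.26%. The share of family counts on copies with siRNA 1 was 47.1% with all copies of the table. The log2 fold change changed sign with the GC trend removed for RPL21P16 (-0.0178), RPS2P5 (0.54), RPS3AP6 (-0.21), RPSAP58 (0.0866) and RPS7P1 (-0.0219), and with scaling by total count for RPS7P1 (-0.0217). Larger moves without a change of sign came with the GC trend removed for RPS28P7 (-0.0018, against -0.81), RPS2P46 (-0.08, against -0.81), RPL13P5 (-0.10, against -0.71), RPL13P12 (-0.30, against -1.04), RPL13AP5 (-0.21, against -0.71) and RPL18AP3 (-0.58, against -1.27). With 1 siRNA library left out, it ran from -0.0508 to 0.00876 for RPL23AP42, from -0.196 to 0.0690 for RPL39P3, from -0.231 to 0.166 for RPL9P9, from -0.210 to 0.507 for RPL7P21 and from -0.0105 to 0.157 for RPS7P1. Apart from these constructions (fewer members, fewer libraries), the cause was not tested.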
